A study of Mus musculus with 6 samples.

Results

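Of the 24940 genes in the table, 10 are described here: Nap1l5, Peg3, Peg10, Sgce, Mest, Plagl1, Grb10, Cdkn1c, Dlk1 and Impact, protein-coding genes known in the mouse for imprinted expression. They were found by their symbols, and each symbol had 1 row. The list was chosen by known imprinting together with the values of the forskolin contrast itself, in which Nap1l5 stood out, so the changes below describe the genes and test nothing about the list. After the filter on low counts 9 of the 10 entered the fit across all genes, and Dlk1 did not.

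In genomic imprinting the copy inherited from one parent is silenced, through DNA methylation laid down in the egg or sperm, and transcripts come mainly from the other copy. Of these genes, Cdkn1c and, in most tissues, Grb10 are known for expression from the maternal copy, and the others for expression from the paternal copy. Many imprinted genes act on growth before birth and become less active in adult organs. The libraries hold counts per gene and do not tell the parental copies apart, so imprinting itself was not measured.

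The cells were primary hepatic stellate cells, the perisinusoidal cells of the liver that store retinoids and become myofibroblasts on activation. They came from wild-type female C57BL/6JBomTac mice of an age not given in the sources used here. At 2 days after isolation they received 5 µM forskolin, which switches on adenylyl cyclase and raises cAMP, or an equal volume of the vehicle DMSO, and were harvested after 3 h. Both groups hold 3 libraries of polyadenylated RNA, named A, B and C. The labels do not say whether the letters mark separate isolations or animals, so the spread between libraries may be technical.

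Library totals ran from 2770454 to 10607918 counts, and in both groups C was the shallowest. Log2 CPM, the count scaled to library size, of A and B correlated across genes at 0.983 with forskolin and 0.976 with DMSO, against 0.937 to 0.942 for pairs of 1 group that include C. These values run across genes, which are not replicates, and serve only as a description. All 12 stellate cell markers lay above 3 counts in every library, with a summed 1403 to 1708 CPM in DMSO and 1525 to 1792 CPM in forskolin; 1 of the 12, the transcription factor gene Hand2, was called higher (log2 fold change 1.03 ± 0.19). Hepatocyte markers summed to 71.0 to 86.4 CPM in DMSO and 106 to 115 CPM in forskolin. Nearly all of that sum was Ass1, an enzyme of the urea cycle, at 64.2, 64.9 and 79.0 CPM in DMSO A, B and C and 101, 103 and 89.4 CPM in forskolin A, B and C. Ass1 was not called over all libraries and was called higher without both C libraries (0.66). Albumin (Alb) lay between 1.56 and 7.77 CPM with groups that overlapped, and the part of these markers in the results was not tested. Markers of endothelial cells, macrophages, lymphocytes and the joint list of cholangiocyte and mesothelial cells summed to at most 43.6 CPM in any library, with ranges of the groups that overlapped, and markers at 0 throughout included Marco, Nkg7, Ms4a1, Krt7 and Upk3b. The fit without both C libraries, which called 5.86% of all tested genes higher, also called the stellate markers Hand2 (0.92), Des (0.43) and Col1a1 (0.36). From the joint list it called Sox9 (4.39) and Spp1 (1.20) higher. Sox9 had counts of 50, 54 and 0 in forskolin A, B and C and 0, 4 and 18 in DMSO A, B and C. In such bulk samples a change in the number of cells of a type and a change in RNA per cell cannot be told apart.

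Forskolin acts through cAMP, and CREB, the transcription factor that protein kinase A phosphorylates, binds the cAMP response element, or CRE. The letters of the full element, TGACGTCA, and of its core, TGACG, were therefore searched on both strands in the RefSeq promoter windows of build GRCm38.p6, which run from 250 bases before to 50 bases after a start. Windows were available for 6 of the 10 genes, 9 windows in all, and 1 of the 9 held the full element while 4 held the core. Among all 32851 windows, 1.79% held the full element and 20.8% the core. Printed here to 30 bases past the start, 5′ to 3′ on the strand of the gene and with the searched letters in capitals, are the windows of the 2 genes that passed the test with forskolin, Nap1l5 (chr6:58907097-58907376, minus strand) and Plagl1 (chr10:13090582-13090861, plus strand), and of the gene with the full element, Peg3 (chr7:6730390-6730669, minus strand).
Nap1l5: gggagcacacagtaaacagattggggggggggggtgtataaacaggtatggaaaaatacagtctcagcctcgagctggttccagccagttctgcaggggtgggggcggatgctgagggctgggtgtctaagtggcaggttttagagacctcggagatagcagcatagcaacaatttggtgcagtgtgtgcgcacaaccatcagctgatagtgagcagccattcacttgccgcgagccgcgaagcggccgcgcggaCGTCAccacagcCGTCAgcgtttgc
Plagl1: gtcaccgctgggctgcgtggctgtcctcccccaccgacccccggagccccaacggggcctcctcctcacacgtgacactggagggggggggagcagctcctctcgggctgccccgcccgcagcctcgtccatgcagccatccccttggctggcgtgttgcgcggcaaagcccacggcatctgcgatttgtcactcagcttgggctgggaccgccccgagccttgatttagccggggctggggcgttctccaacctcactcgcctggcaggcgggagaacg
Peg3: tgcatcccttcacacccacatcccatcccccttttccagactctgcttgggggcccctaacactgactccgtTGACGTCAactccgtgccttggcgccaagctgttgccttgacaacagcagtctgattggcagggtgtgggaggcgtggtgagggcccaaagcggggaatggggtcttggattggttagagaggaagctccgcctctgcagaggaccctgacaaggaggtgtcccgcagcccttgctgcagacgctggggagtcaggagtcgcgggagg
The Nap1l5 window held no full element. It held the core 2 times just past its RefSeq start, at bases 6 to 10 and 18 to 22. Both lie on the opposite strand, counted from 1 at the first base of the RefSeq transcript. Read with the 2 bases before it, the first of these cores spells GACGTCA, which is the full element without its first letter. Of all windows, 3.21% hold these 7 letters on either strand. The Peg3 window and 1 of the 2 Grb10 windows hold them too. That shorter string was searched after the Nap1l5 window had been seen. The GENCODE M21 start of Nap1l5, at chr6:58907076, lies downstream of the RefSeq start at 58907126, and both cores lie before it. The Peg3 window held TGACGTCA at bases 178 to 171 before the start, so that its 2 matches to the core, 1 per strand, lie in the same 8 letters. The Plagl1 window held neither motif. Of the remaining windows, 1 of the 2 for Grb10 and the 1 for Dlk1 held the core, and the 3 for Mest held none. The Grb10 window with the core lies inside the Grb10 row, away from the row's start. The Dlk1 window ends before the start of the Dlk1 row, and 2 of the Mest windows nearly coincide. All 3 printed windows lay above the median of all windows in base composition: 57.7% GC with 17 CpG for Nap1l5, 70.7% with 26 for Plagl1 and 61.3% with 13 for Peg3, against 52.7% and 7. A match of letters is not evidence of binding, and a missing match says nothing about the factor.

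With forskolin, 2 of the 9 tested genes rose past an adjusted p of 0.05 by edgeR's quasi-likelihood test, Nap1l5 and Plagl1, none fell, and 7 did not pass. Among all 12233 tested genes, 2.22% were called higher and 0.572% lower, and because the list was made with this contrast in view nothing is read from the difference. The fitted log2 fold change was above 0 for all 9, as for 50.8% of all tested genes, with a median of 0.53 against 0.01 over all tested genes, and without Nap1l5 the median of the remaining 8 was 0.52. In 5 genes (Nap1l5, Plagl1, Peg3, Mest and Impact) every forskolin library lay above every DMSO library, a separation found in 10.7% of all tested genes. The 10 genes together took 0.134%, 0.131% and 0.132% of all counts in forskolin A, B and C and 0.0874%, 0.0906% and 0.0831% in DMSO A, B and C. With Nap1l5 set aside the shares were 0.116% to 0.121% in forskolin and 0.0831% to 0.0899% in DMSO, still without overlap.

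When both shallow C libraries were left out, a choice made after the data were seen, 6 of the 9 genes were called higher and none lower: Nap1l5, Plagl1, Peg3, Mest, Grb10 and Impact. In that fit 5.86% of 12597 tested genes were called higher, and the median log2 fold change of the 9 genes was 0.47. The larger number of calls thus went with a larger number across the whole table.

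**Figure D1:**
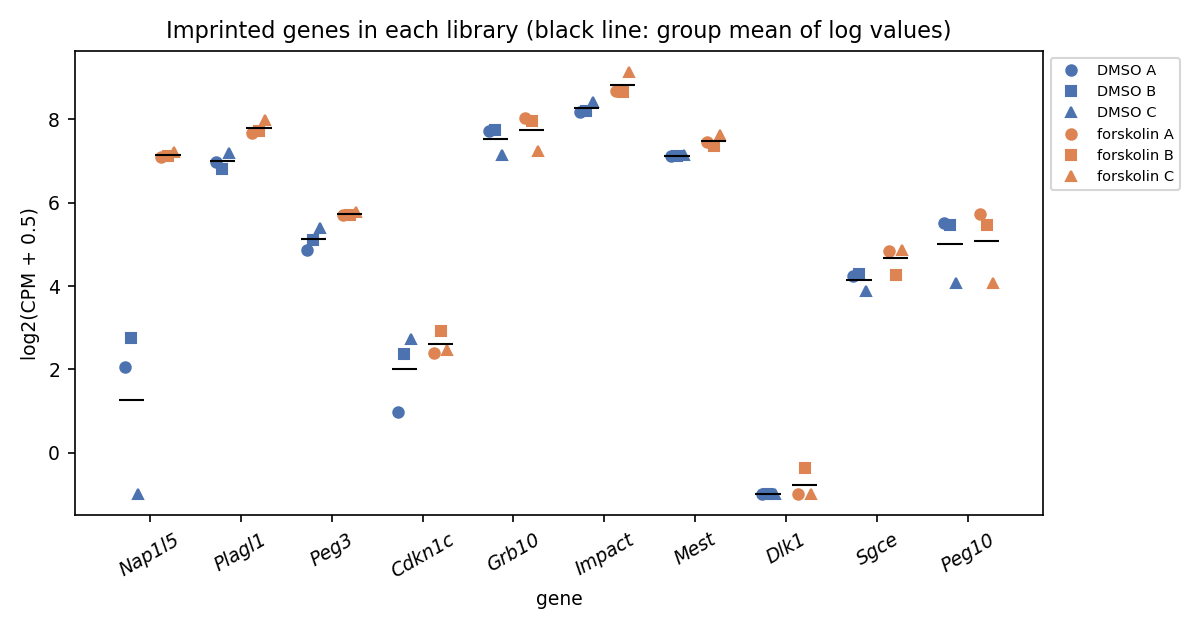
Each point is 1 library, with the gene on the x axis and log2 of CPM plus 0.5 on the y axis. DMSO is blue, forskolin is orange, shapes mark libraries A, B and C, and black lines are means of the plotted log values. Nap1l5 is the gene whose groups stand farthest apart, while Grb10 and Peg10 show the C library low in both groups.

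Nap1l5 encodes a small protein of the nucleosome assembly protein 1 family, whose members carry histones to and from chromatin. Its row (NM_021432) covers chr6:58905233-58907126 on the minus strand of mm10. The counts were 1304, 1494 and 383 in forskolin A, B and C, and 25, 62 and 0 in DMSO A, B and C. In CPM these are 136, 139 and 149 with forskolin and 3.65, 6.28 and 0 with DMSO, where the 0 in the shallow DMSO C allows a level of up to 1.02 CPM, the value of 3 counts there. All 3 forskolin libraries lie within a narrow band, and the lowest of them is 21.6 times the highest DMSO library. The group means were 141 ± 6.81 CPM (SD, n = 3) and 3.31 ± 3.15 CPM (SD, n = 3), a fitted log2 fold change of 5.10 ± 0.42 (SE), or 34.3-fold. By that value Nap1l5 was the 6th of the 272 genes called higher. Without both C libraries the log2 fold change was 4.73 ± 0.18, and without DMSO C alone it was 4.78. Without DMSO B it was 5.86, over 1.5 times the fold of all libraries, so the size depends on which low DMSO library is counted while the call does not.

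The row of Nap1l5 lies wholly within that of Herc3, a HECT-type ubiquitin ligase gene on the opposite strand, with 1894 bases shared. In the GENCODE M21 annotation of this build, Nap1l5-201 is a single exon inside intron 22 of the 25-exon transcript Herc3-202, and the shorter Herc3-201, with 23 exons, ends 1152 bases before it. The library kit does not mark strand, so reads of one gene over the other could not be separated by strand. Herc3 measured 35.5, 32.2 and 31.9 CPM in forskolin A, B and C and 37.2, 27.1 and 34.9 CPM in DMSO A, B and C. These ranges overlap fully, and the log2 fold change of Herc3 was 0.01 ± 0.19. The estimate for the host gene is thus close to 0, beside the 34.3-fold rise of the gene within it. Fam13a, at chr6:58933536-59024502, gave a log2 fold change of -0.42 ± 0.38. Pyurf, much further away at chr6:57684739-57692078, gave 0.04 ± 0.37. Both were named after their values were seen.

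**Figure D2:**
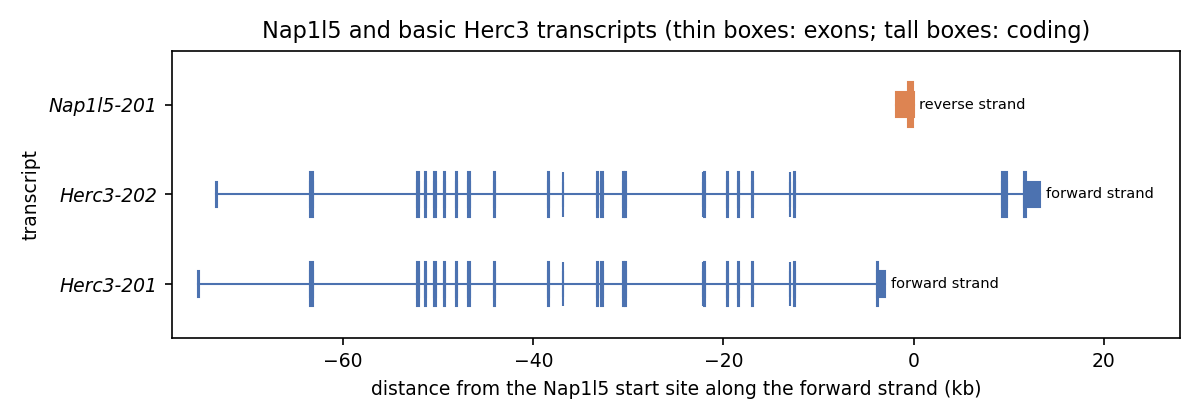
The x axis is the distance in kb from the GENCODE start of Nap1l5 along the forward strand, with boxes for exons (thin) and coding parts (tall) of 3 transcripts. Nap1l5, on the reverse strand, falls in intron 22 of Herc3-202 and beyond the end of Herc3-201.

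The genes whose profile over the 6 libraries was most like that of Nap1l5 were taken by the root-mean-square difference of log2 CPM centred on each gene's own mean, among 10154 candidates of at least 4 CPM. They were Gja4 at 0.41, Il33 at 0.54, Nr4a2 at 0.58, Egfl7 at 0.67 and the non-coding AW011738 at 0.91, all in log2 units. Gja4, which encodes a gap junction connexin, gave counts of 997, 1002 and 198 with forskolin and 32, 40 and 0 with DMSO. Il33 and Egfl7 likewise had a count of 0 in DMSO C, and their log2 fold changes were 4.12 ± 0.47 and 3.90 ± 0.51. The measure takes in the difference between the groups, so large fold changes follow from the choice of genes. It also rewards a count of 0 in the same shallow library, and it is a description of these 6 libraries.

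Plagl1 (also known as Zac1) encodes a zinc finger transcription factor that restrains proliferation and acts on other imprinted genes. Its row, NM_009538, covers chr10:13090788-13131695 on the plus strand. Its level was 204, 212 and 252 CPM in forskolin A, B and C and 125, 112 and 146 CPM in DMSO A, B and C. Every forskolin library was above every DMSO library, with the C library the highest of both groups. The means of 223 ± 25.9 and 128 ± 17.6 CPM (SD, n = 3) differ by a log2 fold change of 0.81 ± 0.13, or 1.75-fold, which placed Plagl1 218th of the 272 genes called higher. The call was lost without DMSO A, at a log2 fold change of 0.80, and without DMSO B, at 0.72, whereas without both C libraries the value was 0.82 ± 0.08 and the call held.

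Hymai, a non-coding gene imprinted with Plagl1, starts 57 bases downstream on the same strand and shares 5056 bases with its row, so their counts cannot be fully separated. It measured 9.59, 7.43 and 9.72 CPM with forskolin and 5.83, 4.05 and 3.05 CPM with DMSO. The libraries of the groups did not overlap, yet the log2 fold change of 1.01 ± 0.43 did not pass the test. The other PLAG zinc finger genes gave no call either. Plagl2 had a log2 fold change of -0.13 ± 0.14 and the scarcer Plag1 one of -0.40 ± 0.59.

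Peg3 encodes a large Krüppel-type zinc finger protein that binds DNA and takes part in the control of growth and maternal behaviour. It covers chr7:6705960-6730419 on the minus strand (NM_008817). The levels were 52.1, 51.8 and 54.0 CPM in forskolin A, B and C and 28.9, 34.1 and 41.3 CPM in DMSO A, B and C. The forskolin libraries are nearly equal and all exceed the highest DMSO library, which is C. The log2 fold change of 0.61 ± 0.18, or 1.53-fold, did not pass edgeR's test, passed in limma-voom at 0.65, and passed without both C libraries at 0.71 ± 0.16.

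Around Peg3, Usp29 starts 164 bases away on the other strand, so the Peg3 window printed above also covers the start of the Usp29 row. Usp29 had counts of 0, 0 and 0 with forskolin and 4, 0 and 15 with DMSO, too few for the test. Peg3os, an antisense transcript that lies wholly within the Peg3 row, measured 9.59, 5.58 and 4.66 CPM with forskolin and 2.63, 3.24 and 6.10 CPM with DMSO, and its log2 fold change was 0.80 ± 0.54. Without strand its reads and those of Peg3 cannot be told apart. Zim1, a maternally expressed neighbour, had counts of 22, 6 and 6 with forskolin and 0, 2 and 0 with DMSO, and was likewise too low to be tested.

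Grb10 encodes an adaptor that binds the insulin and IGF1 receptors and dampens their signal. It covers chr11:11930499-12037420 on the minus strand (NM_010345). It measured 260, 250 and 151 CPM in forskolin A, B and C and 211, 214 and 142 CPM in DMSO A, B and C. The difference between libraries A and B and library C within each group exceeded the difference between the groups, which overlap. Over all libraries the log2 fold change was 0.22 ± 0.21 and did not pass. Without both C libraries it was 0.25 ± 0.07 and passed.

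Among the other GRB7-type adaptors and the receptors and substrates they bind, 1 of 5 tested genes was called, Irs2. This insulin receptor substrate, a well-known cAMP-responsive gene, measured 372, 368 and 372 CPM in forskolin A, B and C and 166, 197 and 188 CPM in DMSO A, B and C. It rose by a log2 fold change of 1.01 ± 0.11 (adjusted p = 0.00046 by edgeR), and was called in all 15 other settings as well. The receptor genes Igf1r and Insr, named after their values were seen, gave 0.17 ± 0.20 and -0.37 ± 0.18 and did not pass.

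Cdkn1c encodes the cyclin-dependent kinase inhibitor p57Kip2, a brake on the cell cycle. It covers chr7:143458339-143461050 on the minus strand (NM_001161624). Its counts were low, at 46, 76 and 13 with forskolin and 10, 46 and 18 with DMSO. In CPM these are 4.79, 7.06 and 5.05 against 1.46, 4.66 and 6.10, so the groups overlap, with DMSO A alone well below the rest. The log2 fold change of 0.51 ± 0.61 did not pass. The other CIP/KIP inhibitors were far more abundant and also not called: Cdkn1a at 0.12 ± 0.29 and Cdkn1b at 0.27 ± 0.16.

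Dlk1 encodes a transmembrane, Delta-like protein of fetal and progenitor cells that is thought to act on NOTCH signalling. It covers chr12:109453455-109463336 on the plus strand (NM_010052). It had 3 counts in forskolin B and 0 in the other 5 libraries, at or under the floor of 3 counts everywhere, so no fold change is given. Meg3, the maternally expressed non-coding gene of the same region, was scarce too and was not called, with 1.72 ± 0.59 CPM in forskolin and 3.59 ± 3.65 CPM in DMSO (SD, n = 3). None of the 4 tested NOTCH receptor genes passed: Notch2 gave a log2 fold change of 0.04 ± 0.13 and Notch1 one of 0.61 ± 0.16 (adjusted p = 0.0857 by edgeR). Notch1 was called without both C libraries, at 0.73, and also without a filter, without forskolin C, in DESeq2 and in limma-voom.

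Mest encodes an enzyme-like membrane protein of the alpha/beta hydrolase fold that is linked to adipocyte growth. It covers chr6:30738053-30748466 on the plus strand (NM_001252292). The levels were 176, 164 and 197 CPM in forskolin A, B and C and 138, 139 and 142 CPM in DMSO A, B and C. The DMSO libraries lie close together, at 139 ± 1.97 CPM (SD, n = 3), and all forskolin libraries exceed them. The log2 fold change of 0.36 ± 0.11, or 1.28-fold, did not pass, and passed at 0.29 ± 0.08 without both C libraries. Copg2, a coat protein gene on the opposite strand, shares 913 bases with the 3′ end of Mest, so part of their reads cannot be separated. It gave 85.0, 76.8 and 87.1 CPM with forskolin and 70.6, 65.4 and 62.4 CPM with DMSO, a log2 fold change of 0.32 ± 0.13 that did not pass. Mir335, which lies inside Mest, had at most 2 counts in a library.

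Impact encodes an inhibitor of GCN2, the kinase that senses amino acid shortage and phosphorylates the initiation factor eIF2. With NM_008378 as its row, it was the most abundant of the 10 genes per length in both groups. It measured 413, 400 and 564 CPM in forskolin A, B and C and 289, 295 and 344 CPM in DMSO A, B and C. The groups do not overlap, and C is the highest library of both. Fitted over all libraries, the log2 fold change of 0.57 ± 0.15, or 1.48-fold, did not pass edgeR's test. It passed in DESeq2 at 0.57, in limma-voom at 0.57, without a filter at 0.57 and without both C libraries at 0.47 ± 0.07.

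None of the 9 tested genes of the GCN2 pathway was called. By CPM the most abundant were Atf4, at a log2 fold change of 0.18 ± 0.26, and Eif2s1, at -0.02 ± 0.15. Atf4 is the transcription factor whose translation rises when eIF2 is phosphorylated, and Eif2s1 is the phosphorylated subunit itself. Eif2ak4, the gene of GCN2, gave -0.39 ± 0.16. The ATF4 targets Trib3, Ddit3 and Asns gave 0.79 ± 0.21, 0.60 ± 0.17 and 0.42 ± 0.19. Of the same list, Chac1 gave 0.895 ± 0.571 and Sesn2 0.063 ± 0.13, and neither was called without both C libraries. Trib3, Ddit3 and Asns were called higher without both C libraries, a fit that called 5.86% of all tested genes higher, at 0.77, 0.53 and 0.33. Trib3 was also called without a filter, without forskolin C, in DESeq2 and in limma-voom, and Ddit3 without a filter and in limma-voom. Trib3, Ddit3, Asns, Chac1, Sesn2 and Eif2ak4 were named after their values were seen. Hrh4, within 20000 bases of Impact, had at most 13 counts in a library and was not tested.

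Peg10 and Sgce start 102 bases apart and run in opposite directions. Peg10 derives from a retrotransposon, is needed for the placenta and covers chr6:4747306-4760516 on the plus strand (NM_130877). It measured 52.5, 44.1 and 16.3 CPM in forskolin A, B and C and 45.2, 43.8 and 16.3 CPM in DMSO A, B and C. In both groups library C lies far below A and B, at 0.338 of their mean in forskolin and 0.366 in DMSO, and the groups overlap. The log2 fold change of 0.11 ± 0.42 did not pass, and its sign turned without forskolin A (-0.19) and without DMSO C (-0.18). The collagen gene Col1a1, a stellate cell marker, was also low in both C libraries, at 54.4 and 56.3 CPM against 106 to 149 CPM in the other libraries.

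Sgce encodes epsilon-sarcoglycan, a membrane protein of the dystrophin-associated complex, and covers chr6:4674350-4747204 on the minus strand (NM_001130190). Its levels were 28.3, 18.9 and 28.8 CPM in forskolin A, B and C and 18.5, 19.04 and 14.2 CPM in DMSO A, B and C. Forskolin B falls inside the DMSO range, so the groups overlap. Its log2 fold change of 0.53 ± 0.26 did not pass. Unlike Peg10, Sgce was not low in forskolin C, which stood at 1.22 times the mean of A and B. The complex's partner genes Dag1 (0.26 ± 0.15) and Sgcb (0.28 ± 0.18) did not pass either, and Sgca, Sgcd and Sgcz were too low to be tested.

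**Figure D3:**
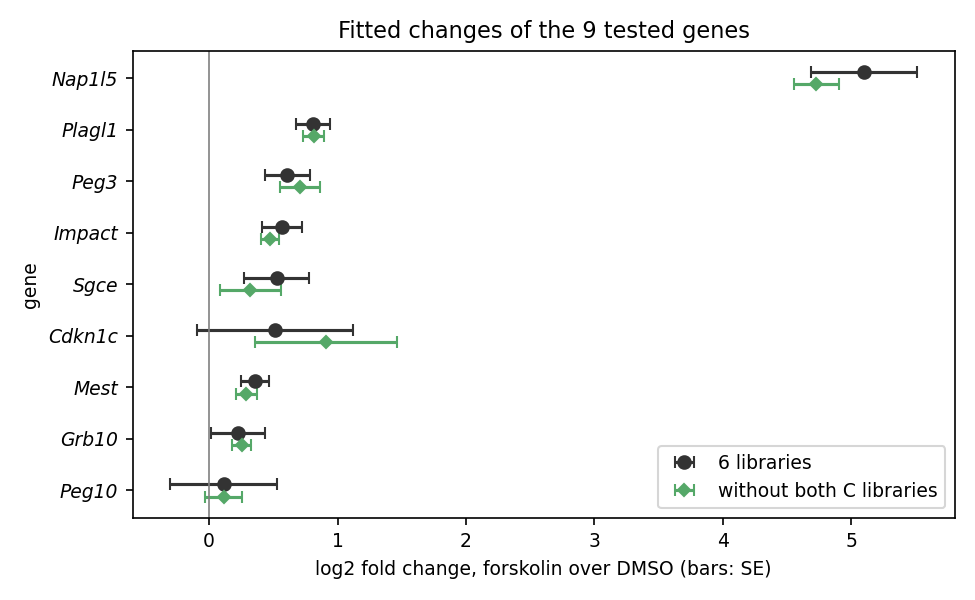
Fitted log2 fold change of forskolin over DMSO (x axis) for the 9 tested genes (y axis), with bars for the SE. Black circles use 6 libraries and green diamonds leave out both C libraries; Nap1l5 lies at 5.10 and 4.73, and the 8 others between 0.11 and 0.91.

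Expressed per kilobase of transcript, which allows levels of different genes to be compared, the DMSO order ran from Impact at 82.5 CPM per kb through Mest at 52.6, Grb10 at 37.3, Plagl1 at 24.3 and Sgce at 9.85 to Peg10 at 5.27, Peg3 at 5.26, Cdkn1c at 2.10, Nap1l5 at 1.75 and Dlk1 at 0. The libraries of neighbouring genes in this order did not overlap, except for Peg10 with Peg3, Cdkn1c with Nap1l5, and Nap1l5 with Dlk1. With forskolin the order was Impact at 122, Nap1l5 at 74.7, Mest at 67.5, Grb10 at 43.4, Plagl1 at 42.4, Sgce at 14.4, Peg3 at 7.96, Peg10 at 5.65, Cdkn1c at 2.91 and Dlk1 at 0.0215 CPM per kb. Here Nap1l5 overlapped with Mest, Grb10 with Plagl1, Peg3 with Peg10, and Peg10 with Cdkn1c.

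Nap1l5 thus went from the 9th to the 2nd place among the 10 genes, while no other member moved by more than 2 places. Its DMSO level rests on few counts: it was 0.964 CPM per kb without DMSO B and 2.62 without DMSO C, where it lay above Cdkn1c at 1.58. Among all tested genes its level per length stood at percentile 15.8 in DMSO and 90.3 in forskolin, while that of Plagl1 went from 67.8 to 80.5. These percentiles are among genes kept by a filter over both groups, to which the forskolin counts of Nap1l5 contributed. Of the counts that fell on the 10 genes, Nap1l5 took 0.424%, 0.724% and 0% in DMSO A, B and C and 10.3%, 10.8% and 10.5% in forskolin A, B and C.

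**Figure D4:**
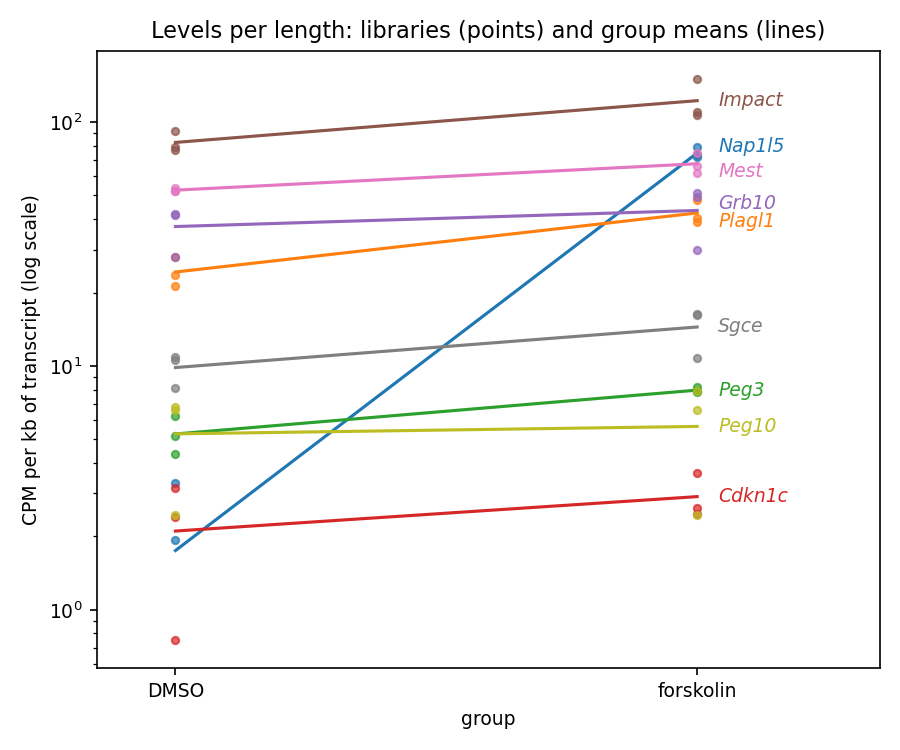
CPM per kb of transcript on a log axis (y) for the 2 groups (x), with points for libraries and lines joining group means of the 9 tested genes. A value of 0 (Nap1l5 in DMSO C) has no point on the log axis. The Nap1l5 line runs from 1.75 to 74.7, while Impact stays on top in both groups.

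Other imprinted genes were taken from separate lists that hold none of the 10. Of 48 listed genes 47 had a row, 27 were tested and none was called in edgeR. At an unadjusted p under 0.05 there were 3 of 27 (Zrsr1, Zdbf2 and Copg2), a level reached by 12.1% of all tested genes, so the count is near the background. DESeq2 called 2 and limma-voom 0. Their median log2 fold change was 0.19 against 0.01 over all tested genes, with 19 of 27 above 0, against 50.8% of all tested genes. In 4 of 27 every forskolin library lay above every DMSO library, against 10.7% of all tested genes. The 13 tested genes listed as paternally expressed had a median of 0.22, and the 14 listed as maternally expressed one of 0.16. Which copy these cells express was not measured. Among the 13, Snrpn and Snurf have rows with the same coordinates and nearly equal counts, so they are not separate values. By CPM the most abundant paternal ones were the non-coding Kcnq1ot1 at 0.33 ± 0.17 and Ndn, a neuronal growth suppressor, at 0.15 ± 0.16. The Kcnq1ot1 row is 83436 bases long, and per length it held only 0.655 CPM per kb in DMSO, below Nnat at 12.3. The most abundant maternal ones were Gnas, which encodes the G protein subunit that activates adenylyl cyclase, at 0.19 ± 0.21 and the tetraspanin gene Cd81 at 0.11 ± 0.14.

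Zdbf2, a paternally expressed gene of the brain and hypothalamus named after its values were seen, came nearest to the size of the Nap1l5 change. Its counts were 156, 72 and 30 with forskolin and 10, 6 and 12 with DMSO, or 16.3, 6.69 and 11.7 CPM against 1.46, 0.608 and 4.07 CPM. All forskolin libraries exceeded all DMSO libraries, but the spread within both groups was wide. Its log2 fold change was 2.69 ± 0.68 (adjusted p = 0.0804 by edgeR). Other settings that called it include those without DMSO C, without both C libraries (3.52) and without a filter, and DESeq2. Zrsr1, also named after its values were seen, encodes a splicing factor-like protein and measured 61.7, 57.4 and 65.3 CPM with forskolin and 42.3, 42.9 and 40.3 CPM with DMSO. Its log2 fold change of 0.55 ± 0.14 missed the threshold (adjusted p = 0.0914 by edgeR) and passed in DESeq2 and without both C libraries (0.48). The lowest estimates in the same lists were Igf2 (-1.28 ± 1.10) and Meg3 (-1.03 ± 0.94). Sfmbt2 (-0.74 ± 0.63) and Nnat (-0.635 ± 0.333) came next. They were named after their values were seen, their groups overlapped and none was called.

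Genes of the same loci as the 10, imprinted or not, gave no call among 16 tested, with 1 at an unadjusted p under 0.05 (Copg2), against 12.1% of all tested genes, and a median log2 fold change of -0.04. By CPM the most abundant were Ltv1, near Plagl1, at -0.09 ± 0.13, and Copg2. The list also holds the distant Pyurf. Of the 42 tested family and partner genes over all such lists, 2 were called higher, Irs2 and Arc, and 1 lower, Tspyl1. Among all tested genes the shares were 2.22% and 0.572%. At an unadjusted p under 0.05 there were 8 of the 42, against 12.1% of all tested genes, and the median was 0.07. Arc, a neuronal gene that like Peg10 derives from a retrotransposon gag gene, rose from 21.1 ± 6.13 to 51.7 ± 8.63 CPM (SD, n = 3), a log2 fold change of 1.30 ± 0.25 (adjusted p = 0.02 by edgeR). This call was lost when forskolin B, DMSO A or DMSO B was left out, which left Irs2 as the 1 gene called higher.

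Within the NAP1 family, 8 of 10 genes were tested. Tspyl1, a relative that carries the same histone-binding fold, measured 65.6, 55.2 and 54.4 CPM in forskolin A, B and C and 82.6, 90.8 and 102 CPM in DMSO A, B and C. It fell by a log2 fold change of -0.64 ± 0.14 (adjusted p = 0.0428 by edgeR). That call was lost whichever single library was left out, leaving 0 genes called lower, and held without both C libraries at -0.53. The abundant chaperone genes Nap1l1, Set and Nap1l4, named after their values were seen, gave 0.02 ± 0.15, -0.01 ± 0.13 and -0.04 ± 0.10. Nap1l2 had 0 CPM in DMSO and was not tested. Of 7 tested genes that maintain imprints or partner the KRAB zinc finger proteins, none was called. None had an unadjusted p under 0.05, against 12.1% of all tested genes, as with the abundant Trim28 (0.09 ± 0.12) and Zfp445 (-0.21 ± 0.14). In 2 of the 7, Zfp57 (-0.86 ± 0.49) and Uhrf1 (-0.40 ± 0.27), every forskolin library lay below every DMSO library. The same held for 1157 of all 12233 tested genes. Zfp57 and Uhrf1 were named after their values were seen.

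**Figure D5:**
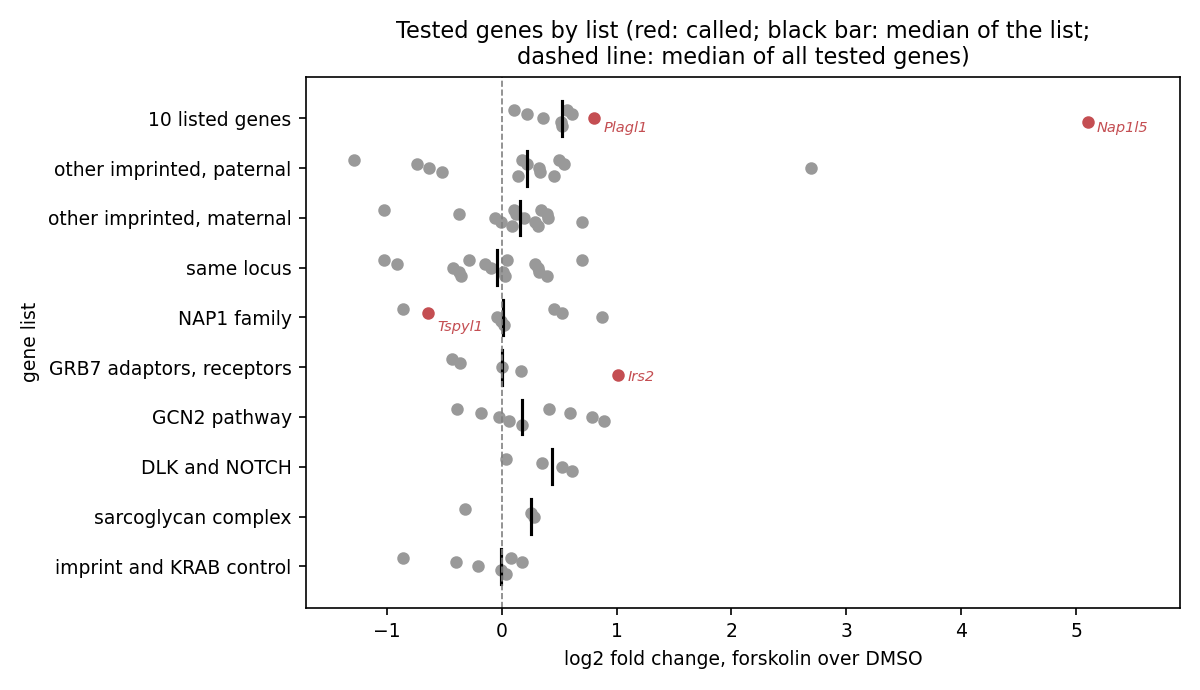
Each point is 1 tested gene, with the log2 fold change of forskolin over DMSO on the x axis and 10 of the gene lists on the y axis. Red points passed the test; black bars are list medians, and the dashed line is the median of all tested genes, 0.01. The median of the 9 tested among the 10 listed genes is 0.53, and the point at 2.69 among paternally expressed genes is Zdbf2.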

How the data were processed

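RNA sequencing was measured in 6 libraries, 3 per group, of which none was left out of the main comparison. The authors deposited 1 table of expected counts over exons per gene (steps of 0.5, 24.2% of values not whole), with RefSeq rows in mm10 coordinates per the file headers. The submitters' processing notes name STAR, HOMER and mm10, and the sources used here give no versions, settings or annotation release. Values were rounded to whole numbers before testing.

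Genes were kept by filterByExpr, scaled by TMM and compared with edgeR 4.0.16 in R 4.3.3 (quasi-likelihood F test, robust, Benjamini-Hochberg adjustment over all tested genes, threshold 0.05). CPM values use TMM-scaled library sizes, and are divided by the deposited transcript length where given per kb. The common biological coefficient of variation was 0.213, and 3 counts, the floor, equal 0.279 to 1.17 CPM. Floors cover counting error only, since reads were counted without molecular identifiers. Likeness used log2 of CPM plus 0.5. The procedure was tested on simulated counts. Alternatives were other scalings and filters, DESeq2 1.42.0, limma-voom (limma 3.58.1), a block for the replicate letter, fits without each library and, added after the data were seen, a fit without both C libraries.

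The members and gene lists were chosen with earlier results of these data known. Named genes are all 10 members and called genes of each list (up to 6). Where none passed, the 2 most abundant by CPM, not per length, were named. Genes overlapping or adjoining a member within 20000 bases and the 5 profiles nearest to Nap1l5 were named too. Any gene outside this rule was picked with its values known, and this includes Meg3, Nap1l2, Col1a1 and the untested sarcoglycan genes.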

Additional observations from a re-analysis of the deposited data

How the results depend on the processing

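Nap1l5 was called higher in all 15 other settings, with a log2 fold change of 4.73 to 5.86, and the fitted change of every member but Peg10 stayed above 0 in each of them. Peg10 turned to -0.186 without forskolin A and -0.181 without DMSO C, and reached 0.413 without forskolin C. Without a filter, Dlk1 also entered the fit, and the calls were 463 genes higher, 157 lower, 1 other imprinted gene higher and 5 family or partner genes higher. DESeq2 gave 409 higher, 144 lower, 2 other imprinted and 4 family genes higher, and limma-voom 131 lower, 4 members and 5 family genes higher. With column totals as library sizes, 0 family genes were lower. Without both C libraries the calls were 738 higher, 491 lower, 6 members higher, 2 other imprinted and 6 family genes higher. Leaving out each library in turn gave 162 to 372 genes higher and 21 to 113 lower, 1 to 2 members higher (1 without DMSO A or DMSO B, which lost Plagl1), 0 to 1 other imprinted gene higher (1 without DMSO C), 1 to 4 family genes higher and 0 lower. In place of the full CRE (1.79% of windows), its core was in 20.8% and the 7 letters in 3.21%. The causes of these shifts were not tested. The median over all tested genes stayed between -0.03 and 0.01.

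With the letter as a replicate block, 455 genes were higher and 194 lower, with 4 members (Nap1l5, Plagl1, Mest and Impact), 1 other imprinted gene (Zdbf2) and 6 family genes higher (Irs2, Arc, Notch1, Trib3, Ddit3 and Asns). Between the groups, deviations from the group means correlated at 0.055 for A, 0.138 for B and 0.161 for C. Forskolin B and C correlated best with the DMSO library of their own letter, and forskolin A with DMSO B (0.105). Such correlations rest on deviations from means of 3 libraries and cannot decide whether a letter marks a shared isolation. Depth limits Dlk1, Cdkn1c, Zim1 and Usp29, and every value from the C libraries. Counts pool both alleles and strands. A comparison of protein sequences within the NAP1 family was planned and not run.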
